A study of Mus musculus with 8 samples.

Results

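Common variants near many genes raise the risk of Parkinson disease, and the genes described here are mouse counterparts of 10 genes at such loci, given as a list. They were Mapt, Tmem175, Gak, Scarb2, Ctsb, Gpnmb, Rit2, Bst1, Sh3gl2 and Inpp5f, 10 of the 21951 protein-coding genes of the annotation. The rule that gives the list uses no value measured here, although the list was drawn up with earlier results of these data known. For each gene, the open chromatin within the gene body and 20 kb on each side was taken from ATAC-seq, an assay in which a transposase cuts and tags accessible DNA so that sequenced fragments pile up as peaks.

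The cells were SN4741, a clonal, wild-type mouse line from embryonic substantia nigra, labelled as neural precursor cells. The line carries a temperature-sensitive SV40 T antigen driven by a tyrosine hydroxylase promoter, so both groups hold the transgene. In the first group, 4 libraries came from cells kept at the permissive 37 °C in 10% serum. In the second, 4 libraries came from cells moved for 48 h to the non-permissive 39 °C in 0.5% serum. Temperature and serum changed together and cannot be told apart. Nothing states that the libraries of a group came from separate cultures, so the p-values measure only the spread between these libraries, which may be technical.

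Most of these genes act in 2 linked systems of the cell. Tmem175 (a lysosomal ion channel), Scarb2 (LIMP-2, the receptor that carries glucocerebrosidase to lysosomes), Ctsb (the protease cathepsin B) and Gpnmb (a membrane glycoprotein of lysosomes and phagocytic cells) belong to the lysosome, where proteins and lipids are broken down. Gak (a kinase that helps strip clathrin from vesicles), Sh3gl2 (endophilin A1, which bends membrane at sites of endocytosis) and Inpp5f (a phosphoinositide phosphatase of endosomes) act in vesicle uptake. Mapt encodes tau, which binds microtubules in axons, Rit2 a small GTPase of neurons, and Bst1 the surface enzyme CD157. Dopaminergic neurons of the substantia nigra are the cells lost in the disease.

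The peak caller kept 49.8 to 169 M fragments per library (M for mega), and 2 libraries, replicates 1 and 4 at 37 °C, held over 100 M. It listed 74026 to 92013 peaks per library at 37 °C and 54845 to 68410 at 39 °C, so the lists at 39 °C were shorter in every library. The lists hold no read counts, so a gene was described by which libraries called a peak and by the peak's percentile, the share of peaks in the same library's list with a −log10 q-value at or below its own. A longer list adds weak peaks at its end and raises the percentile of the others, so each member is set beside all genes below. Promoter peaks (within 1 kb of a start site) were called in all 8 libraries for 5 of 8 neural precursor markers, 4 of 8 markers of dopaminergic neurons, 1 of 7 of microglia and macrophages and 5 of 6 of fibroblasts. Of all coding genes, 59.9% had a promoter peak in all 8 libraries and 31.4% had none in any. No library called a promoter peak for Fabp7 among the first markers, Ddc and Slc18a2 among the second, or Cx3cr1, Itgam, Ptprc and Tyrobp among the microglial genes.

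The 10 genes fell into 3 groups by their promoters. Mapt, Tmem175, Gak, Scarb2, Ctsb and Inpp5f had a promoter peak in all 8 libraries, which 59.9% of all coding genes had. Sh3gl2 had one in 4 of 4 libraries at 37 °C and in 0 of 4 at 39 °C, as did 1.46% of coding genes. Gpnmb, Rit2 and Bst1 had none in any library, as 31.4% of coding genes did. The reverse, all 4 libraries at 39 °C and none at 37 °C, was found for none of the 10 and for 0.0137% of coding genes. A missing peak means that no call passed the caller's threshold in that library, not that the promoter was shut, and in bulk chromatin fewer cells with an open region cannot be told apart from less open DNA in each cell. Of the lysosomal genes, Gpnmb alone had no promoter peak, and of the vesicle genes each had one in at least the 4 libraries at 37 °C.

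**Figure D1:**
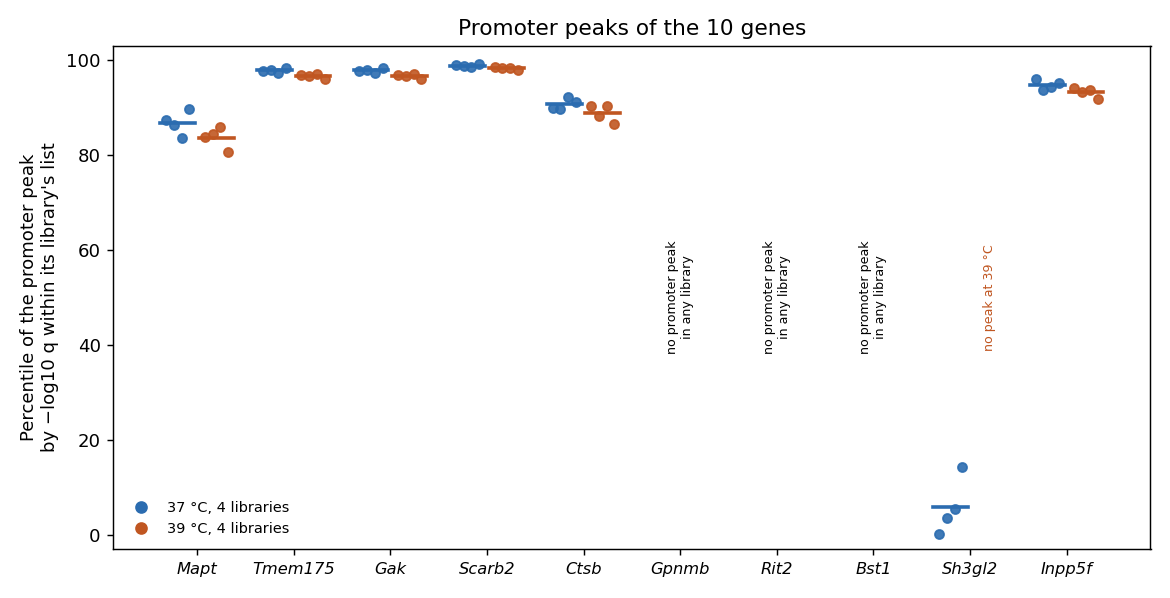
Percentile of the best promoter peak of each gene by −log10 q within its own library's list (vertical axis, 0 to 100), for 4 libraries at 37 °C (blue) and 4 at 39 °C (orange), with bars at group means. Tmem175, Gak and Scarb2 sit at 96.0 or higher in every library, Sh3gl2 sits at 14.2 or lower at 37 °C and has no point at 39 °C, and Gpnmb, Rit2 and Bst1 have no promoter peak.

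Among the lysosomal genes, Scarb2 had the highest-ranking promoter of the 10. Its peak stood at percentiles 99.0, 98.8, 98.5 and 99.1 in replicates 1 to 4 at 37 °C and 98.6, 98.3, 98.3 and 98.0 at 39 °C. The groups overlapped by 1 library, since replicate 3 at 37 °C lay below replicate 1 at 39 °C. The means were 98.9 ± 0.275 and 98.3 ± 0.214 (SD, n = 4 each, with p = 0.0571 by the exact permutation test, which is two-sided throughout, and adjusted p over all genes = 0.0898). The peak was 3140 ± 455 bp wide at 37 °C and 2821 ± 369 bp at 39 °C (SD, n = 4 each, with p = 0.257 by the exact permutation test).

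Tmem175 and Gak are read in opposite directions from start sites that lie next to each other on chromosome 5, so 1 peak serves both and the 6 genes with a peak in all 8 libraries have 5 promoters between them. The bases between the outermost start sites of the 2 genes, chr5:108629756-108629769 on mm10, plus strand, are shown. The outermost Gak start site is that of a non-coding transcript, and its coding transcript starts at chr5:108629739.

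Tmem175 and Gak, between start sites: agagagcgagttgc

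The shared peak stood at percentiles 97.7, 97.9, 97.4 and 98.4 at 37 °C and 96.9, 96.8, 97.2 and 96.0 at 39 °C. All 4 libraries at 39 °C lay below all 4 at 37 °C. The means were 97.9 ± 0.461 and 96.7 ± 0.491 (SD, n = 4 each, with p = 0.0286 by the exact permutation test, the smallest this design allows, adjusted p = 0.0539). Its width was 2772 ± 597 bp at 37 °C and 2112 ± 153 bp at 39 °C, also without overlap (SD, n = 4 each, with p = 0.0286 by the exact permutation test, adjusted p = 0.122). Replicates 1 and 4 at 37 °C, the deep libraries, were the widest at 3536 and 2958 bp, while the other 2 at 37 °C, at 2305 and 2290 bp, lay near the 2248 bp of the widest at 39 °C. Without the deep libraries the difference in width was −186 bp in place of −661 bp (exact permutation test, p = 0.133).

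Ctsb, the cathepsin B gene, had its promoter peak at percentiles 89.9, 89.8, 92.2 and 91.2 at 37 °C and 90.3, 88.2, 90.3 and 86.4 at 39 °C, and the groups overlapped. The means were 90.8 ± 1.14 and 88.8 ± 1.85 (SD, n = 4 each, with p = 0.171 by the exact permutation test, adjusted p = 0.219). The 150 bases before its coding start site, chr14:63122312-63122461 on mm10, plus strand, are shown because they hold the letters that mark many lysosomal genes. Capitals mark matches to TCACGTG, the core of the CLEAR element bound by the lysosomal regulator TFEB, and to GGGCGG, the box of SP and KLF factors.

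Ctsb promoter: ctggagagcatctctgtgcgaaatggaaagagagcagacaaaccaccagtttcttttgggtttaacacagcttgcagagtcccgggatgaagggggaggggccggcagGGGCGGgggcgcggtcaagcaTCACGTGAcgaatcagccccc

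The CLEAR core was there on both strands, as an 8-base palindrome that also contains the E-box CACGTG. Of the 10 genes, Ctsb was the only one with this core between 250 bases before and 50 bases after the start site, a window in which 4.15% of 21848 coding genes have it. Scarb2, Tmem175 and Gpnmb, the other lysosomal members, did not have these letters in that window.

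Downstream in Ctsb, a start site of a non-coding transcript 13.1 kb into the gene also had a peak in all 8 libraries. It stood at percentiles 61.0, 56.9, 52.5 and 58.2 at 37 °C and 26.6, 38.3, 28.4 and 19.9 at 39 °C, with no overlap. The means were 57.2 ± 3.55 and 28.3 ± 7.60 (SD, n = 4 each, with p = 0.0286 by the exact permutation test). The difference at this internal site was −28.9 points, and that at the Ctsb promoter itself −1.97 points. These are not on equal terms, since the promoter ranked near the top of the lists and the internal site further down. Over all genes and regions called in all 8 libraries, the median difference was −2.50 points for promoters and −9.02 points for distal regions.

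Gpnmb had no promoter peak in any of the 8 libraries, although Malsu1, whose start site lies within 20 kb of Gpnmb, had a promoter peak at a mean percentile of 89.7 at 37 °C and 87.7 at 39 °C. The Gpnmb sequence before its coding start site, chr6:49036465-49036614 on mm10, plus strand, is shown as the example of a promoter that was not called, with its match to TGANTCA, the AP-1 site, in capitals.

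Gpnmb promoter: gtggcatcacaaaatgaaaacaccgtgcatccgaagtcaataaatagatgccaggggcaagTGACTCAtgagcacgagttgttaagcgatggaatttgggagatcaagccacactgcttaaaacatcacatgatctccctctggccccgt

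The AP-1 letters lie in 6.74% of coding promoters in the window from 250 bases before to 50 after the start site, and among the 10 genes only in that of Gpnmb.

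Of the vesicle genes, Inpp5f had the highest-ranking promoter peak after Gak. It stood at percentiles 96.0, 93.6, 94.3 and 95.1 at 37 °C and 94.1, 93.2, 93.8 and 91.9 at 39 °C, overlapping. The means were 94.8 ± 1.03 and 93.2 ± 0.978 (SD, n = 4 each, with p = 0.0857 by the exact permutation test, adjusted p = 0.123). A second group of Inpp5f start sites, 76.2 kb into the gene and with 2 coding transcripts of its own, had a much weaker peak at percentiles 52.5, 47.4, 38.2 and 56.0 at 37 °C and 31.9, 25.7, 35.2 and 16.7 at 39 °C, without overlap. There the means were 48.5 ± 7.72 and 27.4 ± 8.12 (SD, n = 4 each, with p = 0.0286 by the exact permutation test). Inpp5f held 1 promoter among the strongest peaks of each library and 1 in the lower or middle part of the list.

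Sh3gl2, endophilin A1, was the only member whose promoter call differed between the temperatures. Its peak, chr4:85205392-85205986, was called at 37 °C at percentiles 0.203, 3.44, 5.40 and 14.2 in replicates 1 to 4 and was not called at 39 °C. The values at 37 °C were thus among the weakest of each list, with a width of 458 ± 86.2 bp (SD, n = 4). No other peak was called within the gene and its flanks, 474 kb in all, in any of the 8 libraries, and the second coding start site 171 kb into the gene had none. When each list was limited to its 54845 highest peaks, the length of the shortest list, the Sh3gl2 promoter was called in 0 of 8 libraries. The bases before its start site, chr4:85204976-85205125 on mm10, plus strand, are shown with CCAAT, the NFY box, in capitals.

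Sh3gl2 promoter: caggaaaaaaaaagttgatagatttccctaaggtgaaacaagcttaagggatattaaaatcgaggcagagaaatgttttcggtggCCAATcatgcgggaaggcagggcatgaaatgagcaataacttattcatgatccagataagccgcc

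Mapt, the tau gene, had 2 separate start sites with peaks. The first start site, chr11:104231390, the first of a cluster of start sites of 6 coding transcripts, had a peak at percentiles 79.4, 80.5, 80.6 and 82.3 at 37 °C and 75.2, 74.3, 77.3 and 73.7 at 39 °C. The groups did not overlap, with means of 80.7 ± 1.22 and 75.1 ± 1.57 (SD, n = 4 each, with p = 0.0286 by the exact permutation test). The best promoter peak of the gene, however, lay 86.6 kb further in, beside the start site of 1 non-coding transcript, at percentiles 87.4, 86.3, 83.6 and 89.7 at 37 °C and 83.9, 84.5, 85.8 and 80.6 at 39 °C, overlapping. The means there were 86.8 ± 2.53 and 83.7 ± 2.23 (SD, n = 4 each, with p = 0.143 by the exact permutation test, adjusted p = 0.188). It was 2393 ± 318 bp wide at 37 °C and 1575 ± 256 bp at 39 °C, without overlap (SD, n = 4 each, with p = 0.0286 by the exact permutation test, adjusted p = 0.122). The bases before the first start site, chr11:104231240-104231389 on mm10, plus strand, are shown with the match to the SP and KLF box GGGCGG, here on the minus strand, in capitals.

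Mapt promoter: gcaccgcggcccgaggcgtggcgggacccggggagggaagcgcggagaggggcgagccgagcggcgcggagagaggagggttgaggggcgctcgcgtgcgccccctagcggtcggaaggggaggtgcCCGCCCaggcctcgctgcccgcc

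Rit2 and Bst1 had no peak at any annotated start site in any library. Fbxl5, which has a start site within 20 kb of Bst1, had a promoter peak in all 8 libraries. It stood at a mean percentile of 91.4 at 37 °C and 92.3 at 39 °C (exact permutation test, p = 0.171). That peak lay more than 20 kb from Bst1, and no peak within that distance lay near an Fbxl5 start site.

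Lower promoter percentiles at 39 °C were found across the genome. All 4 libraries at 39 °C lay below all 4 at 37 °C for Tmem175 and Gak, 2 of the 6 genes with a peak in all 8 libraries, and for 52.5% of the 13145 coding genes with such a peak. The reverse order was found for none of the 6 and for 0.517% of coding genes. The median difference over all genes was −2.50 points, and the 6 genes ranged from −3.09 for Mapt to −0.588 for Scarb2. No gene of the 13145 passed an adjusted p of 0.05 by this exact test, 6965 had an unadjusted p under 0.05, and limma on the logit of the percentile called 7621 lower and 82 higher. By limma, adjusted p was 0.0145 for Tmem175 and Gak and 0.0153 for Scarb2, and 0.0673, 0.104 and 0.125 for Inpp5f, Mapt and Ctsb. Widths gave the same picture: Mapt, Tmem175 and Gak were narrower at 39 °C in all libraries, as were 23.4% of coding genes, and none was wider, against 0.129%. For Mapt this was the peak at the internal non-coding start site. The first Mapt promoter was 2376 ± 270 and 2080 ± 123 bp wide, with overlap (SD, n = 4 each, with p = 0.0571 by the exact permutation test).

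To compare ranks without the effect of list length, peaks were also ranked among only the 44861 merged regions that all 8 libraries called. On that scale, the median difference over all coding genes was −0.00836 points, and none of the 6 members was separated in either direction, against 13.5% of coding genes lower and 8.68% higher. Tmem175 and Gak went from 96.1 ± 0.600 to 95.4 ± 0.230 (SD, n = 4 each, with p = 0.0857 by the exact permutation test), and Scarb2 from 98.0 ± 0.304 to 97.6 ± 0.211 (p = 0.0857 by the same exact test). Mapt and Ctsb were higher at 39 °C by 1.12 and 1.27 points, each within the spread of the libraries (exact permutation test, p = 0.429 for both). The first Mapt promoter, whose groups did not overlap in the libraries' own lists, stood here at 65.4 ± 3.33 and 65.9 ± 2.31 (SD, n = 4 each, with p = 0.857 by the exact permutation test). Of the weaker start sites inside genes, that of Ctsb was still lower at 39 °C without overlap, at 25.8 ± 4.59 against 10.7 ± 4.91 (SD, n = 4 each, with p = 0.0286 by the exact permutation test), while the second promoter of Inpp5f, at 15.0 ± 2.3 and 9.65 ± 2.15, was not separated (p = 0.0571 by the same exact test). A non-coding start site inside Gak, 57.9 kb from its first, stood at 42.4 ± 2.11 and 38.0 ± 5.27 and overlapped (SD, n = 4 each, with p = 0.143 by the exact permutation test). In the libraries' own lists this Gak site stood at 67.3 ± 4.04 and 53.4 ± 9.59, without overlap (SD, n = 4 each, with p = 0.0286 by the exact permutation test).

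Base composition was compared between the genes with a promoter peak in all 8 libraries and the other 4, of which Sh3gl2 had one at 37 °C. In the window from 250 bases before to 50 after the coding start site, the 6 genes with a peak in all 8 libraries had a GC content of 61.0% to 78.3%, led by Mapt, and a ratio of observed to expected CpG of 0.606 to 0.980, led by Tmem175. The other 4, Gpnmb, Rit2, Bst1 and Sh3gl2, had a GC content of 42.3% to 54.0% and a ratio of 0.299 to 0.544. Across all coding genes the median GC content was 60.0% for those with a peak in all 8 libraries and 45.7% for those with none, with median CpG ratios of 0.743 and 0.181. The quartiles ran from 53.3% to 66.7% GC and from 0.526 to 0.896 in ratio for the former, and from 40.0% to 51.7% and from 0.0836 to 0.339 for the latter. Gpnmb, with a ratio of 0.544, and Bst1, with a GC content of 54.0%, thus each lay within the quartiles of the genes with a peak on that measure. Sh3gl2 had a GC content of 42.3% and a ratio of 0.299, beside medians of 56.3% and 0.299 for the 319 genes that shared its pattern of calls, whose lower quartile of GC content was 52.0%. These values are a description with no test. GGGCGG was found in the windows of all 6 genes with a peak in all 8 libraries, those of Tmem175 and Gak overlapping, and in none of the other 4, beside 43.8% of all coding promoters.

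**Figure D2:**
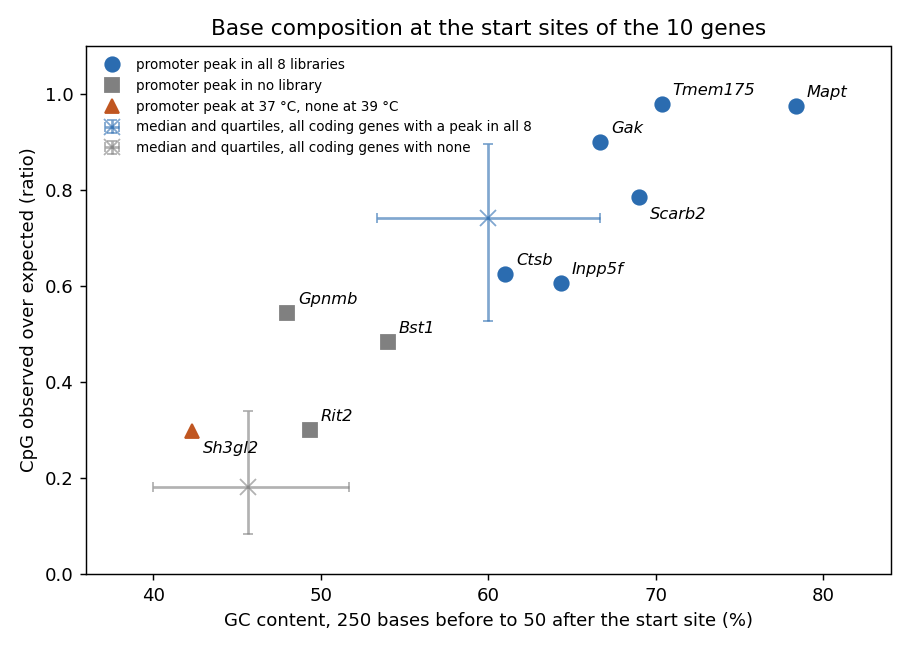
GC content in percent (horizontal axis) and the ratio of observed to expected CpG (vertical axis) around the coding start site of each gene, with crosses at the medians and bars at the quartiles of all coding genes with a promoter peak in all 8 libraries or in none. The 6 genes with a peak in all 8 libraries lie at 61.0% GC or more, and the other 4 lie at 54.0% or less.

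Outside promoters, 47 distal regions (merged peaks over 1 kb from any annotated start site) lay in the windows of the 10 genes. They were unevenly spread, with 16 at Mapt, 6 at Ctsb, 5 each at Gak, Scarb2, Bst1 and Inpp5f, 4 at Tmem175, 3 at Gpnmb, 1 at Rit2 and 0 at Sh3gl2, where Tmem175 and Gak share 3 because their windows overlap. Per library, the windows held 40, 38, 33 and 43 distal peaks at 37 °C and 34, 29, 28 and 20 at 39 °C. Replicate 1 at 39 °C lay above replicate 3 at 37 °C, so the groups overlapped by 1 library. The means were 38.5 ± 4.2 and 27.8 ± 5.80 (SD, n = 4 each, with p = 0.0571 by the exact permutation test). Per 10000 peaks of the list, they were 4.70 ± 0.197 and 4.34 ± 0.645 (SD, n = 4 each, with p = 0.343 by the exact permutation test). With 54845 peaks from each list the difference was 0.750 peaks in the other direction (exact permutation test, p = 0.286). Peaks of any kind covered 67.7 ± 13.7 kb of the windows at 37 °C and 49.9 ± 7.90 kb at 39 °C (SD, n = 4 each, with p = 0.0571 by the exact permutation test), and the 2 deep libraries, at 80.8 and 77.3 kb, had the most. Without them the difference was −6.51 kb in place of −17.8 kb (exact permutation test, p = 0.333).

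**Figure D3:**
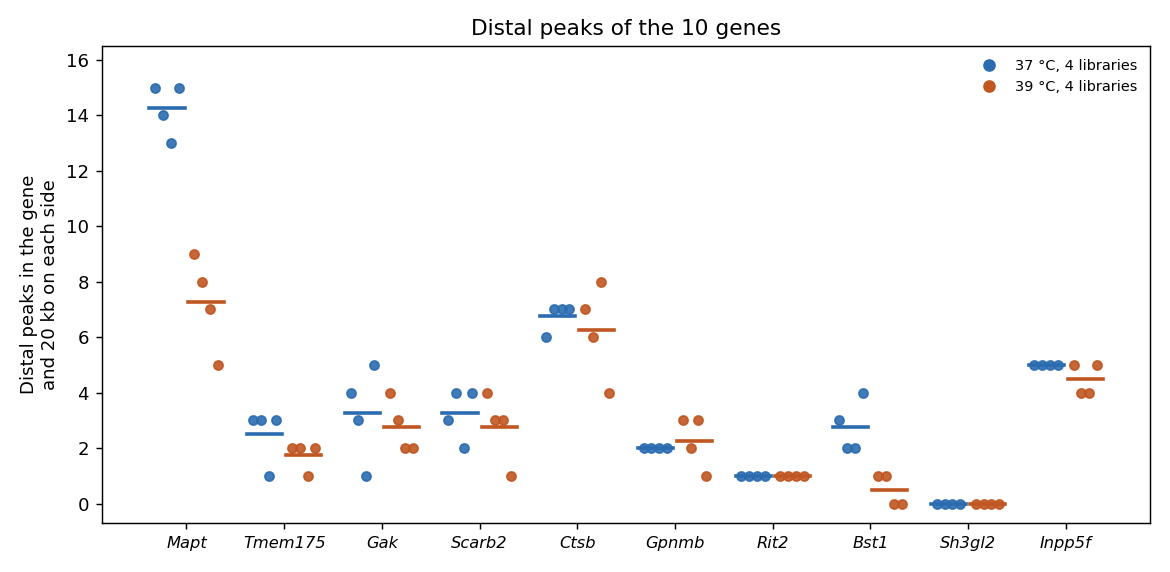
Number of distal peaks (vertical axis) in each gene body and 20 kb on each side, for 4 libraries at 37 °C (blue) and 4 at 39 °C (orange), with bars at group means. Mapt has 13 to 15 peaks at 37 °C and 5 to 9 at 39 °C, Bst1 has 2 to 4 and 0 to 1, and the other genes overlap.

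Mapt accounted for most of this difference in counts. It held 15, 14, 13 and 15 distal peaks at 37 °C and 9, 8, 7 and 5 at 39 °C, so the lowest library at 37 °C lay well above the highest at 39 °C. The means were 14.2 ± 0.957 and 7.25 ± 1.71 (SD, n = 4 each, with p = 0.0286 by the exact permutation test, adjusted p = 0.150). All 4 libraries at 39 °C lay below all 4 at 37 °C in 18.6% of the 16831 gene windows with a distal peak, and above in 0.404%. The Mapt difference of −7 peaks stood at percentile 1.27 of the differences in those windows, whose median was −0.750. The median window held 3 distal peaks at 37 °C and 2 at 39 °C and could not lose 7, so this rank depends on how many peaks Mapt held. Without the 2 deep libraries it was −6.25 (exact permutation test, p = 0.0667, the smallest with 2 against 4). With 54845 peaks from each list, however, Mapt held 5 distal peaks in every one of the 8 libraries, so most of the peaks that separated the temperatures were those at the low end of the longer lists. The equal counts were not of the same peaks throughout. Replicate 4 at 39 °C counted a peak 67.8 kb into the gene, at percentile 3.94, and had none 84.5 kb in. Every other library called the region 84.5 kb in, at percentiles of 43.2 to 58.2 at 37 °C. With lists of equal length, 4.64% of windows were separated downwards and 3.94% upwards.

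**Figure D4:**
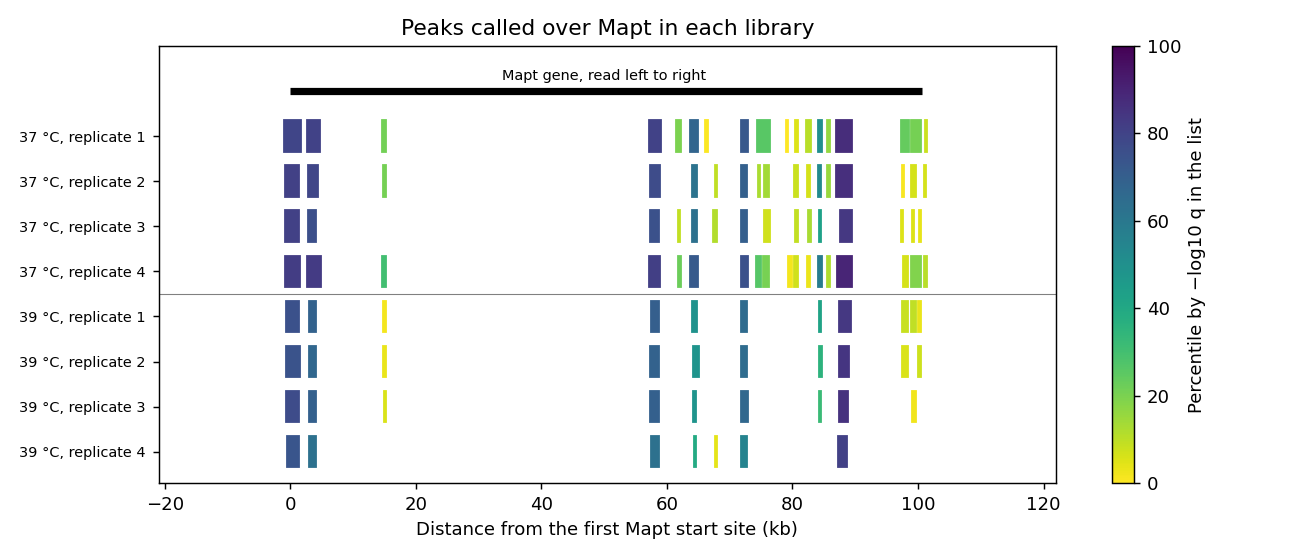
Peaks called over Mapt and 20 kb on each side in each of the 8 libraries (rows), by distance in kb from the first Mapt start site (horizontal axis), coloured by percentile in the library's list. The same few dark, high-ranking peaks recur in all 8 rows, and the pale, low-ranking peaks towards the end of the gene appear mostly in the upper 4 rows, at 37 °C.

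The 4 Mapt distal regions called in all 8 libraries all lay in introns. The one with the highest mean percentile, chr11:104234075-104236191, had its summit 3.62 kb into the gene and stood at percentiles 80.1, 79.0, 75.8 and 82.6 at 37 °C and 69.0, 67.0, 69.8 and 63.2 at 39 °C, without overlap. Among the regions that all 8 libraries called, its percentile was still lower at 39 °C, at 55.5 ± 1.42 against 63.4 ± 1.62 (SD, n = 4 each, with p = 0.0286 by the exact permutation test, adjusted p = 0.0641). The regions with summits 57.9 and 64.4 kb into the gene were lower too on that scale, with differences of −5.05 and −12.3 points (exact permutation test, p = 0.0286 for each, adjusted p = 0.0641). The region 72.3 kb into the gene was not, with a difference of 0.181 points (exact permutation test, p = 0.914). The 121 bases around the summit of the first of these regions, chr11:104234950-104235070 on mm10, plus strand, hold none of the 7 motifs searched.

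Mapt intron, all 8 libraries: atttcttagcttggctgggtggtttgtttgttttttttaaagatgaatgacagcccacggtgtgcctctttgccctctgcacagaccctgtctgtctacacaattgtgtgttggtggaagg

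Of the 47 distal regions, 3 were called in 4 of 4 libraries at 37 °C and 0 of 4 at 39 °C, and all 3 lay in Mapt. Of all 74359 distal regions, 5.26% had this pattern and 0.343% the reverse, which no member region had. The first, chr11:104305576-104307836, stood at percentiles 25.9, 14.0, 7.32 and 26.3 at 37 °C. The second, chr11:104311612-104312312, stood at 5.17, 7.98, 9.35 and 7.38, and the third, chr11:104313603-104314329, at 10.7, 6.42, 13.2 and 3.08. None of these values was above 26.3, and the count of such regions was 0 when only peaks with a −log10 q of 5 or more were kept, and 0 with 54845 peaks from each list. These merged regions were the only distal ones of the 10 genes with this pattern. The sequences around their median summits are shown, with capitals at a GGGCGG in the second and at a GGAATG, the TEAD site, in the third. The first, chr11:104306569-104306689, covers part of a coding exon, and its summits in the 4 libraries lay up to 1406 bp apart.

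Mapt, chr11:104306569-104306689: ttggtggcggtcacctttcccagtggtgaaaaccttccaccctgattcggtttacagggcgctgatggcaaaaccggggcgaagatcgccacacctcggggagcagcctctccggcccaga
Mapt, chr11:104311960-104312080: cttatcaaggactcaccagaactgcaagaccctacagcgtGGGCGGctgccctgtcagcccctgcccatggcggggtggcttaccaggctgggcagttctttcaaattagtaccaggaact
Mapt, chr11:104313938-104314058: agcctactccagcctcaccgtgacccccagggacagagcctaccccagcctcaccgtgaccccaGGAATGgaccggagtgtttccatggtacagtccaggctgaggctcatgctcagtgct

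Bst1 held 3, 2, 2 and 4 distal peaks at 37 °C and 1, 1, 0 and 0 at 39 °C, without overlap (exact permutation test, p = 0.0286, adjusted p = 0.150). These peaks came from 5 regions, none called in all 8 libraries and 4 never called at 39 °C, and with 54845 peaks from each list Bst1 held none in any library. Gak, Scarb2, Ctsb, Inpp5f and Tmem175 had mean differences (39 °C minus 37 °C) of −0.750 to −0.500 distal peaks, and Gpnmb one of 0.250, each with overlap. Rit2 had 1 distal peak in every library and Sh3gl2 had none.

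Ctsb had the strongest distal regions of the 10 genes. An intronic region 9.98 kb into the gene, chr14:63129769-63133323, stood at percentiles 89.0, 87.3, 86.7 and 89.4 at 37 °C and 85.0, 86.5, 86.9 and 80.7 at 39 °C, overlapping. Among the regions of all 8 libraries it went from 78.7 ± 0.443 to 79.1 ± 1.77 (SD, n = 4 each, with p = 0.771 by the exact permutation test). The 121 bases around its summit, chr14:63132380-63132500 on mm10, plus strand, are shown because they hold 2 matches to the AP-1 letters TGANTCA, in capitals.

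Ctsb intron, all 8 libraries: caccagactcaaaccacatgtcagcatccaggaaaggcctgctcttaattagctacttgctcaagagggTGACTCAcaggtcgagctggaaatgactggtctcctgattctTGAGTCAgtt

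Within 100 bases of their summits, 12 of the 47 member regions held the AP-1 letters, beside 32.0% of all distal regions with sequence, and 1 of these was among the 16 Mapt regions. Of the 16 member regions called in all 8 libraries, 6 held them, beside 41.9% of all such distal regions. The TEAD letters lay in 6 of the 47, the NFY box in 6 and the SP and KLF box in 2, beside 18.5%, 22.4% and 5.96% of all distal regions. None of the 47 held the CLEAR core, the E-box or TGCGCA (the core of NRF1 sites), which 1.24%, 2.98% and 1.11% of distal regions held.

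**Figure D5:**
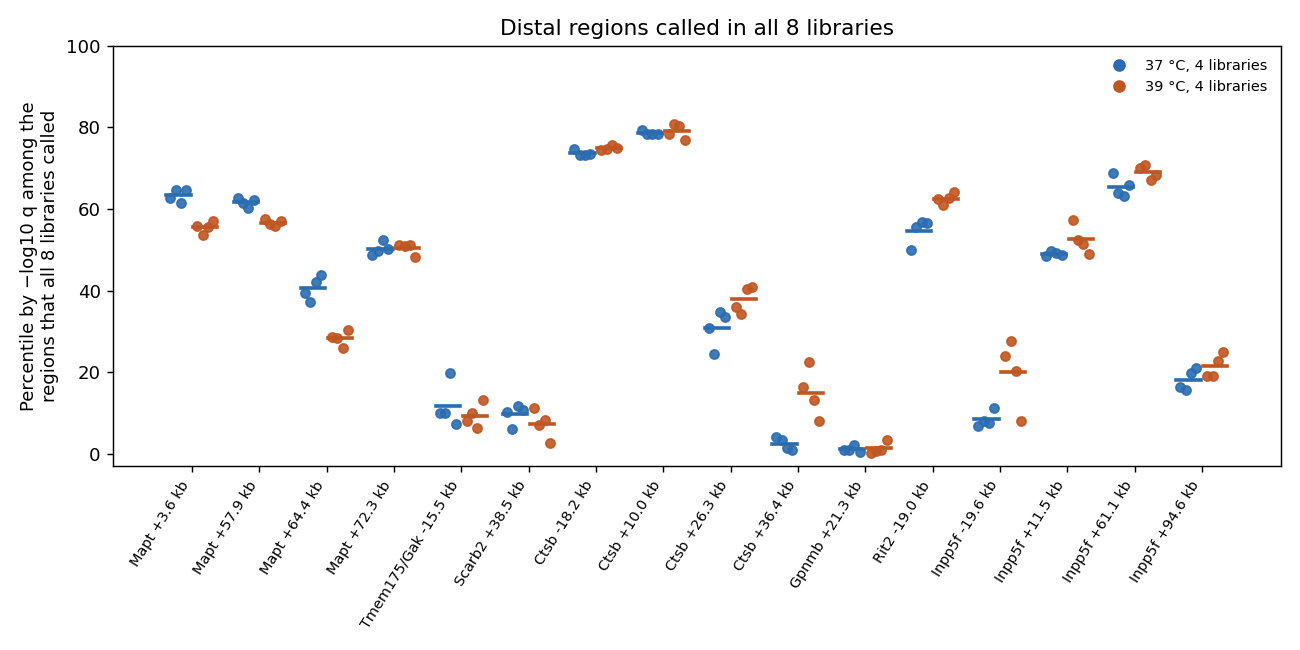
Percentile by −log10 q among only the regions that all 8 libraries called (vertical axis) for the 16 distal regions of the 10 genes with a call in every library, named by gene and by distance of the summit from the gene's first start site in kb, for 4 libraries at 37 °C (blue) and 4 at 39 °C (orange), with bars at group means. Orange lies wholly below blue in 3 Mapt regions and wholly above in 1 region of Ctsb and the region of Rit2.

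By the library's own list, 8 of these 16 distal regions were lower at 39 °C without overlap and none was higher, beside 53.6% and 0.935% of the 28663 distal regions called in all 8 libraries, and 38.5% of all distal regions were called in all 8. Ranked among the regions of all 8 libraries, 3 of the 16 were lower and 2 higher without overlap, beside 21.6% and 23.0%. All 3 that were lower lay in Mapt. The 2 that were higher belonged to Rit2 and Ctsb.

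For Rit2, the 1 region lay 19.0 kb before the gene, chr18:31335765-31336926, and was the only peak in a window of 384 kb. In the library's own list it stood at percentiles 73.3, 73.5, 72.9 and 78.5 at 37 °C and 73.7, 72.4, 74.8 and 69.5 at 39 °C, overlapping (exact permutation test, p = 0.400). Among the regions of all 8 libraries it stood at 54.7 ± 3.27 at 37 °C and 62.6 ± 1.26 at 39 °C, without overlap (SD, n = 4 each, with p = 0.0286 by the exact permutation test, adjusted p = 0.0641). For Ctsb, a region 36.4 kb from its start and beyond the gene's end, chr14:63157610-63159986, went from 2.44 ± 1.57 to 15.0 ± 6.0 on the same scale (SD, n = 4 each, with p = 0.0286 by the exact permutation test, adjusted p = 0.0641), and in the library's own list the groups overlapped (p = 0.486 by the same exact test). No distal region of the 28663 passed an adjusted p of 0.05 on this scale, while 12780 had an unadjusted p under 0.05.

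The other genes' highest-ranking distal regions, among those called in all 8 libraries, were as follows. In Inpp5f, an intronic region 61.1 kb into the gene stood at percentiles from 73.3 to 83.4 over the 8 libraries, in Scarb2 an intronic region 38.5 kb in at 6.95 to 51.4, and in Gpnmb a region 21.3 kb in, in an untranslated part of an exon, at 3.42 to 25.9. A Gpnmb intron region 3.22 kb in, chosen after its values were seen, ranked higher in each of the 7 libraries that called it, at 19.9 to 42.0, but replicate 4 at 39 °C did not call it. The distal region that Tmem175 and Gak share, in a Gak intron 15.5 kb from its start, stood at 39.7 to 47.6 at 37 °C and 21.4 to 30.1 at 39 °C. It was lower without overlap in the library's own list, and overlapped among the regions of all 8 libraries (exact permutation test, p = 0.543). Of the 47 distal regions, 14 were never called at 39 °C, 7 of them at Mapt and 4 at Bst1, beside 32.7% of all distal regions. Never called at 37 °C were 2, in introns of Scarb2 and Gpnmb and each called in 2 of 4 libraries at 39 °C, beside 5.01% of all distal regions.

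Neighbouring coding genes with start sites in the windows were each taken at their highest promoter peak. Among them, Cplx1 (complexin 1, a regulator of synaptic vesicle fusion), downstream of Gak, had the largest difference in percentile. It stood at 51.9 at 37 °C and 24.7 at 39 °C, without overlap (exact permutation test, p = 0.0286). It was also lower without overlap among the regions of all 8 libraries, at 18.7 ± 2.35 against 8.09 ± 3.73 (SD, n = 4 each, with p = 0.0286 by the exact permutation test). Kansl1, which has a start site in the Mapt window, stood at 98.7 and 99.0 at a peak outside that window (exact permutation test, p = 0.200). Dgkq and Idua (the lysosomal enzyme alpha-L-iduronidase), which share a peak beside Tmem175, stood at 92.3 and 88.4 without overlap (exact permutation test, p = 0.0286), and overlapped among the regions of all 8 libraries (p = 0.0857 by the same exact test). A weaker peak near another Dgkq start site, chr5:108651059-108652929, differed by more than that of Cplx1. It stood at 57.4 ± 4.04 and 28.6 ± 6.33 in the libraries' own lists, without overlap (SD, n = 4 each, with p = 0.0286 by the exact permutation test). Among the regions of all 8 libraries it stood at 26.2 ± 3.26 and 10.6 ± 2.34, also without overlap (p = 0.0286 by the same exact test).

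Further genes of the same kinds were counted in the same way, beside a promoter peak in all 8 libraries for 59.9% of coding genes, in none for 31.4%, and lower percentiles at 39 °C without overlap for 52.5%. Among the 10 genes these counts were 6, 3 and 2 of the 6. Of 37 further genes at common Parkinson risk loci, 33 had a promoter peak in all 8 libraries and 1 had none, and 17 of the 33 were lower in percentile at 39 °C without overlap and 0 higher, with a median difference of −1.54 points beside −2.50 over all genes. Of 26 lysosome genes, 25 had a peak in all 8 libraries, 1 had none, and 8 were lower and 0 higher, with a median of −1.73. Of 25 genes of the clathrin coat and its removal, 22 had a peak in all 8 libraries, 2 had none, and 8 were lower and 0 higher, with a median of −1.35. The pattern of Sh3gl2, a peak in every library at 37 °C and in none at 39 °C, was found for none of these further genes.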

How the data were processed

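The authors aligned paired reads to mm10 with Bowtie2 2.4.1, deduplicated them with Picard 2.26.11 and called peaks in each library with MACS3 3.0.0a7, without a control and at a q-value of 0.05. Of its input fragments the caller still dropped 15.4% to 37.3% as further copies of the same fragment, per the headers of the deposited lists, with 37.3% and 30.8% in the 2 deep libraries. The methods also describe removal of peaks over blacklisted regions, but the peaks of each deposited list are numbered without a gap, so such peaks may still be counted in the list lengths, percentiles and genome-wide shares. The deposited lists give each peak's position, its pileup signal in fragments, its fold enrichment (a ratio to 1 genome-wide background) and its p-value and q-value as −log10. Only position, fold enrichment and −log10 q were used here, to rank peaks within a list.

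From the lists, promoter peaks were those within 1 kb of any start site of the gene in GENCODE M21, the highest by −log10 q being taken, and distal peaks those over 1 kb from every annotated start site. Peaks of the 8 libraries that overlapped by at least 1 bp were merged into regions. Values were compared by the exact permutation test over all 70 assignments of the libraries, two-sided, with Benjamini-Hochberg adjustment over all genes or regions tested, and percentiles also by limma 3.58.1 in R 4.3.3. The functions were tested on simulated data. Python 3.11.15, numpy 2.4.6, pandas 2.3.3 and scipy 1.17.1 were used. Sequences were read from GRCm38.p6, the assembly of mm10, and motifs searched on both strands with no mismatch. Fragments kept by the caller, 49.8 to 169 M per library, gave the depth. The members and the gene lists were chosen with earlier results of these data known. Named were all 10 genes, genes with a start site in their windows, regions called at 1 temperature only and the highest distal region of each gene among those called in all 8 libraries, and the Ctsb region that differed and a Gpnmb region were added after their values were seen. Alternatives were peaks of −log10 q at least 5, 54845 peaks per list, windows without flanks or of 50 kb, promoters of 500 bp or 2.5 kb, other start sites, ranking by fold enrichment or among shared regions, 50% overlap, 3 of 4 libraries, a replicate block and leaving out libraries.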

Additional observations from a re-analysis of the deposited data

Results flagged for a closer look

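In 38 groups of 4 libraries, the counts of distal peaks, open sequence, promoter percentiles and promoter widths of the 10 genes were searched for a library that stood apart from the other 3. The rate at which chance gives such a library, about 1 in 20 groups, holds for values without ties. There were 3 such values, all small whole counts of distal peaks in which the other 3 libraries were tied, so that a gap of any size would have stood out and that rate does not apply. At Tmem175, replicate 3 held 1 distal peak at 37 °C, where the other libraries held 3, and replicate 3 held 1 at 39 °C, where the others held 2. At Ctsb, replicate 1 at 37 °C held 6, where the others held 7.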

How the results depend on the processing

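The count of promoters called in all 8 libraries, 6, and the absence of a member whose promoter percentile was higher at 39 °C without overlap (by limma, with adjusted p under 0.05) held under every alternative run for them. With 54845 peaks per list, the difference in distal peaks over the windows was 0.750, no member had p under 0.05 for its promoter percentile or for its distal peaks, 0 members were lower without overlap and 0 distal regions were called at 37 °C only. Differences in distal peaks there were 0.250 for Gak and Scarb2 and 0.500 for Tmem175, and those in promoter percentile 0.952 for Ctsb and 0.745 for Mapt. This setting makes the lists equally long. Ranked among the regions of all 8 libraries, 0 members were lower and the differences of Ctsb and Mapt were 1.27 and 1.12 points. With peaks of −log10 q at least 5, 0 members had p under 0.05 for distal peaks, 0 regions were called at 37 °C only, and the differences in distal peaks were −0.500 for Gpnmb and 0.500 for Tmem175. Windows of 50 kb gave −14.8 distal peaks (exact permutation test, p = 0.0286), with −3 for Inpp5f (p = 0.0286), which then passed, and −3 for Bst1 (p = 0.0857), which did not; windows without flanks left 1 member with p under 0.05 for distal peaks (Mapt), and 7 distal regions were called in at least 3 of 4 libraries at 37 °C and in none at 39 °C. With promoters of 500 bp, the values for Mapt, −10.9 points and −366 bp, set different peaks against each other, since the internal peak reached within that distance in only 3 libraries, all at 37 °C, and the first promoter was taken in the other 5. They are therefore no measure of a difference at 1 site, and the count of 3 members lower under that setting rests on them. With start sites of coding transcripts only, an alternative chosen after the data were seen, the Mapt value was that of its first promoter alone, −5.60 points (exact permutation test, p = 0.0286), and 3 members were again lower.

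Without the 2 libraries of over 100 M fragments, an alternative chosen after the data were seen, the smallest p was 0.0667, so that 0 members passed for promoter percentile, width or distal peaks. Then 1 distal region was called at 39 °C only, the difference in distal peaks was 0.750 for Gak and that in promoter width 19.8 bp for Ctsb. Open sequence then differed by −6.51 kb and the width of the Tmem175 and Gak peak by −186 bp. The replicate numbers did not pair the libraries (same-numbered correlations 0.218, −0.114, 0.223 and −0.194), and with the number as a replicate block the exact test cannot go below 0.125, so 0 members passed for percentile, width or distal peaks, where it had been 2, 3 and 2. With limma and the replicate block 3 members were lower, as without it, and the calls over all genes went from 7621 lower and 82 higher to 5176 and 63.

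Leaving out each library in turn, the difference in distal peaks over the windows ranged from −12.8 to −8.17 and that in open sequence from −23.1 to −13.5 kb, the latter with p = 0.0286 by the exact permutation test without replicate 3 at 37 °C. Distal regions called at 37 °C only numbered 3 to 6, the 6 without replicate 2 at 37 °C. Members lower in percentile numbered 2 to 4, the 4 without replicate 3 at 37 °C, and those with p under 0.05 for percentile 0 to 3, with 0 without replicate 4 at 37 °C or at 39 °C. For width they numbered 0 to 3, with 0 without any 1 library at 39 °C, and for distal peaks 2 to 3, the 3 with Tmem175 at −1.25 (exact permutation test, p = 0.0286) without replicate 3 at 37 °C. The differences in distal peaks ranged from −1.08 to 0.250 for Ctsb, −1.25 to 0.0833 for Gak and −0.917 to 0.0833 for Scarb2. Those in promoter percentile ranged from −2.47 to −1.19 points for Ctsb, −4.13 to −2.05 for Mapt and −1.93 to −1.09 for Inpp5f, with the smallest of each without replicate 4 at 39 °C. Other causes of these changes were not tested.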
